A study of Mus musculus with 12 samples.

Results

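The mitosis genes described here are 40 genes whose products drive chromosome condensation, spindle assembly, chromosome segregation and cell division, and they were chosen by gene name from a count table of 54532 mouse genes. All 40 were found once in the table and all 40 passed the filter on low counts, which kept 16904 genes in all. The lowest count of a member in a library was 24, for Kif20a in control 1. RNA-Seq was performed on colon tissue of wild-type male C57BL/6J mice, aged 5 weeks, in 4 groups of 3 libraries: control (no DSS), model (DSS), Rhy (DSS and rhynchophylline) and DXM (DSS and dexamethasone). Dextran sulfate sodium (DSS), given in the drinking water, injures the colonic epithelium and causes acute colitis. Rhynchophylline is an alkaloid of Uncaria and dexamethasone a synthetic glucocorticoid given here as the reference drug. The labels give DXM at 4 mg/kg and Rhy at 2, 4 and 8 mg/kg, without saying which Rhy dose the mice behind these libraries received, and the study's RNA-Seq methods name the control, model and Rhy groups only. The sources used here do not say how many mice contributed to a library, so p-values measure the spread between these libraries, and in whole colon tissue fewer cells of a type and less RNA per cell cannot be told apart.

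Cells divide in a fixed order. Cyclin-dependent kinase Cdk1, bound to cyclins A and B, brings the cell into mitosis; condensins compact the chromosomes; kinesins and microtubule binding proteins build the spindle; kinetochore proteins attach chromosomes to it while the spindle checkpoint holds back anaphase; the anaphase promoting complex then releases separase and degrades the cyclins; and the central spindle directs the final cleavage. In the colon dividing cells lie mainly in the lower crypt, and the epithelium is renewed from there, also after injury. Many mitosis genes are transcribed late in the cycle, held silent by the DREAM complex in resting cells and switched on by B-Myb and FoxM1, and their promoters often carry a CHR element together with CCAAT boxes.

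These elements were searched for in RefSeq promoter windows of build GRCm38.p6, each of 300 bases, from 250 before to 50 after the annotated start. Windows were found for 35 of the 40 members (all but Aurkb, Ccna2, Kif20a, Tpx2 and Foxm1), with 36 windows because Prc1 has more than 1. The CHR was spelled TTTGAA and the CCAAT box CCAAT, each on both strands, and 2 pairs of neighbouring matches overlapped in the members' windows. TTTGAA was present in 27 of 36 member windows (75%) and in 5875 of 32841 windows of all genes (17.9%). CCAAT was present in 29 member windows (80.6%) and in 37.4% of all windows. Both stood in 25 member windows (69.4%), against 6.95% of all, 2 held only TTTGAA, 4 only CCAAT, and 5 neither (Birc5, Ncaph, Nuf2, Nusap1 and Pttg1). A match is a description of the letters and does not show that a factor binds. The 100 bases before the start are shown for 5 members to let a reader see the arrangement: Cdk1, which had the smallest p in the model group, Top2a, which followed the other members most closely, Cdc20 and Kif11, which did not overlap between the Rhy and model groups, and Ncaph, which had the largest fold change of the members and none of these letters. The start is the upstream one of RefSeq and the count table, the sequences read 5′ to 3′ on the gene's strand, and the matches are in capitals.
Cdk1 (chr10:69352939-69353038, minus strand): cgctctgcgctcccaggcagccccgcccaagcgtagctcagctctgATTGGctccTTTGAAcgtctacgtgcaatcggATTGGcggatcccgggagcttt
Top2a (chr11:99024190-99024289, minus strand): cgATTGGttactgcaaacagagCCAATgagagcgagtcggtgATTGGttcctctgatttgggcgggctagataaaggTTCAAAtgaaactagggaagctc
Cdc20 (chr4:118437353-118437452, minus strand): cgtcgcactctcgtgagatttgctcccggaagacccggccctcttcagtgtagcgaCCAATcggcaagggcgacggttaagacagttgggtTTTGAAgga
Kif11 (chr19:37376282-37376381, plus strand): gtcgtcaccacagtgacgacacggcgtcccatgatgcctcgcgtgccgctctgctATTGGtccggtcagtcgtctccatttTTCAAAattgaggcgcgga
Ncaph (chr2:127133955-127134054, minus strand): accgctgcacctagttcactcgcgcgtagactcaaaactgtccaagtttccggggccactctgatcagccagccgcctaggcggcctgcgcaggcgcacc
In the stretches shown for Cdk1, Top2a, Cdc20 and Kif11 a TTTGAA (or its complement TTCAAA) lay nearer to the start than at least 1 CCAAT or its complement ATTGG.

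The total count was 14346478 to 17749716 per library. Some libraries stood apart. Model 1 and model 2 were nearly alike: their median absolute difference was 0.114 on the log2 scale over all genes and 0.0978 over the members, against 0.262 to 0.676 and 0.181 to 1.43 in the other 65 pairs. Over the 40 members the difference between model 1 and model 2 was 1.69 times that of counting error alone (chi-square per gene), against 12.4 to 120 in the other pairs within a group, which does not tell whether they came from separate animals. They were kept as separate libraries, as labelled, and the counts that depended on them are also given with both as 1. Hoxb13, a homeobox gene of the distal gut, was at 0 to 1.49 CPM (reads of a gene relative to the TMM-normalised library total) in control 3, model 3 and Rhy 1 and at 72.0 to 316 CPM in the other 9 libraries. The 17 genes of the epithelial list were all present and summed to between 23928 and 47612 CPM, as the labelled tissue has them, while of 8 pancreatic acinar genes Cpa1 and Amy2a5 were at 0 in all libraries, 5 were at 0.243 CPM or less, and Cela1 was at 51.8 to 288 CPM, higher in the model than in the control group at an unadjusted p under 0.05. The share of counts from mitochondrial genes was 6.33% to 21.0% in the control group, 11.1% to 13.98% in the model group, 8.90% to 23.8% in the Rhy group and 7.48% to 25.7% in the DXM group. The part of position along the colon, of cell makeup and of RNA quality in the results below was not tested, apart from a fit with a term for the 3 libraries low in Hoxb13, which was chosen after seeing the data, as were the fits that combine DESeq2 or the replicate block with other choices.

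Per length, the members spanned about the range of a rare to a moderately expressed mRNA. Ube2c, the ubiquitin-conjugating enzyme of the anaphase promoting complex, had the highest mean over the 12 libraries with 15.9 FPKM (the deposited fragment count scaled to gene length and library size), followed by the mitotic kinase Plk1 with 15.8 FPKM. Cdc20, the activator of the anaphase promoting complex, had 13.3 FPKM and cyclin B2 (Ccnb2) 11.5 FPKM. At the low end stood the kinetochore gene Ndc80 with 0.799 FPKM and the condensin gene Ncapg with 0.835 FPKM. By group, Ube2c was at 13.8 ± 5.53 FPKM in the control, 19.97 ± 3.59 in the model, 15.6 ± 5.00 in the Rhy and 14.3 ± 7.30 in the DXM group (SD, n = 3). Its place at the top of the order does not hold beyond the spread, since Plk1 was at 14.8 ± 5.36, 19.1 ± 3.62, 12.2 ± 6.67 and 17.3 ± 5.47 FPKM in the same groups.

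**Figure D1:**
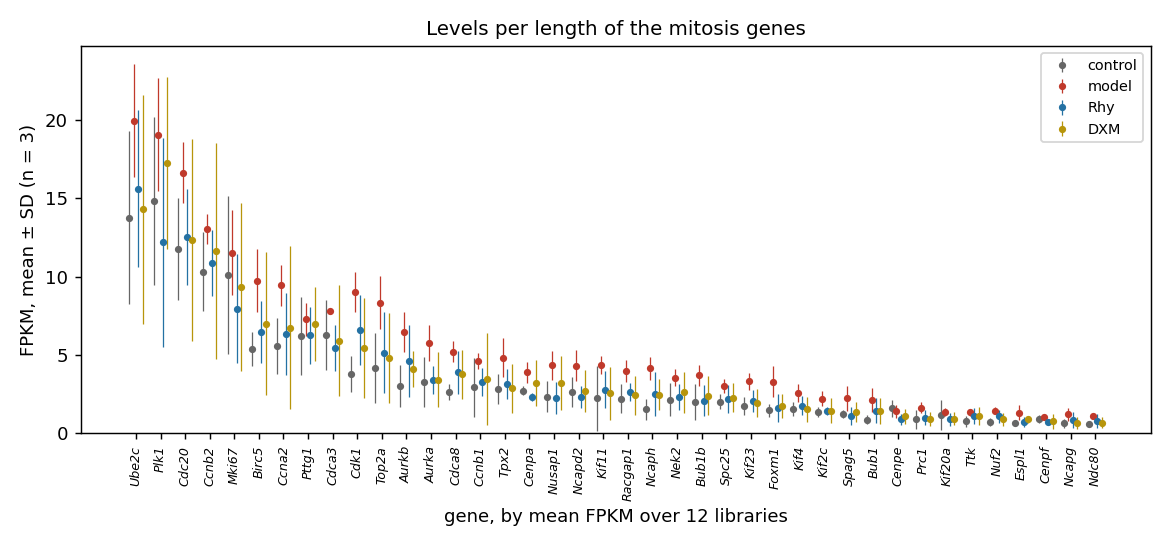
FPKM of each mitosis gene (y axis, mean ± SD of 3 libraries) by group, with genes on the x axis in order of their mean over 12 libraries. Ube2c and Plk1 lead with means of 15.9 and 15.8 FPKM, and the model mean is the highest of the 4 group means for nearly every gene.

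Summed over the 40 members, expression was higher in the model group than in the control group and lower again in most libraries of the drug groups. These differences all rest on the same 3 model libraries, so they are not separate observations. The sums were 632, 416 and 738 CPM in the control group (596 ± 164, SD, n = 3). They were 1067, 1077 and 784 CPM under DSS alone (976 ± 166), 406, 638 and 870 CPM with Rhy (638 ± 232) and 421, 1077 and 532 CPM with DXM (677 ± 351). Every model library lay above every control library. The Rhy and model groups overlapped, as Rhy 3 lay above model 3, and in the DXM group DXM 2 lay at the level of model 1 and model 2 while the other 2 libraries lay within the control range.

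**Figure D2:**
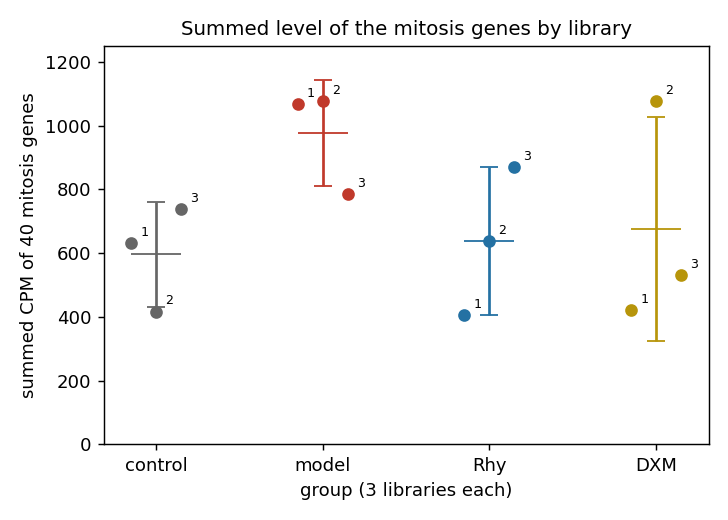
Summed CPM of the 40 mitosis genes (y axis) in each of the 12 libraries, with the replicate number beside each point and bars for the mean ± SD of 3 libraries. The model libraries lie at 784 to 1077 CPM, and DXM 2 lies at 1077 CPM, apart from DXM 1 and DXM 3.

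**Figure D3:**
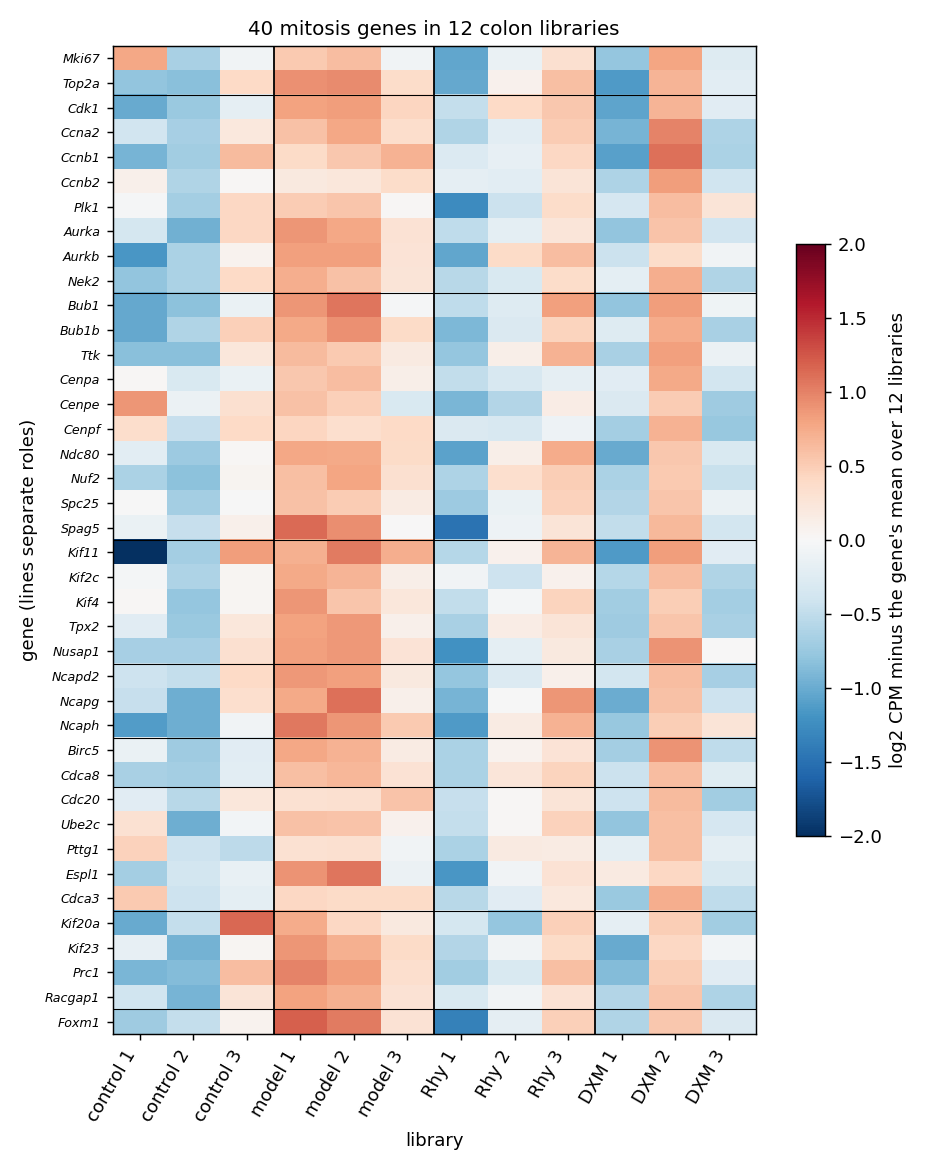
Level of each mitosis gene (rows, lines separate roles) in each library (columns), as log2 CPM minus the gene's own mean over 12 libraries. Model 1, model 2 and DXM 2 are red across nearly all rows, control 2, Rhy 1 and DXM 1 blue, and control 1 is mixed, with Kif11 low and Mki67 and Cenpe high.

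The comparison of the model with the control group asks how mitosis genes behave in colitis. The model group was higher for 39 of 40 members, with a median log2 fold change of 0.86 (1.81-fold), from -0.12 for Cenpe to 1.49 for Ncaph, while the median over all 16904 genes was 0.01 and 50.7% of them were higher. At an unadjusted p under 0.05 by edgeR 11 members were called, all higher, against 5.11% of all genes, and in 19 members every model library lay above every control library, against 10.4% of all genes. After adjustment over all genes edgeR called 0 members and 0 genes (0%), with a smallest adjusted p of 0.459. DESeq2 on all 12 libraries gave 12 members at p under 0.05, with 6.60% of all genes in either direction. After adjustment it gave 0 members (17 members had no adjusted p). On the 6 libraries of the comparison it gave 22 members, with 6.39% of all genes. After adjustment 3 members were left (Cdk1, Cdca8 and Ncaph), where 167 of 27334 genes were called. With model 1 and model 2 as 1 library, DESeq2 on these groups gave 8 members at p under 0.05 and 0 after adjustment, with 3.17% of all genes at p under 0.05, and 19 members did not overlap, against 12.5% of all genes. Deviations of same-numbered control and model libraries from their group means correlated at 0.10 to 0.36. Differently numbered pairs over all groups reached 0.40 (control 1 with Rhy 2). Of control and model, the highest such pair was control 1 with model 2 at 0.21, where model 2 was nearly alike model 1. The next was control 2 with model 1 at 0.08. These values do not show that the numbers pair the libraries. A block on the replicate number in these 6 libraries, added after seeing the data, gave 25 members at an unadjusted p under 0.05 by edgeR. In that fit 10.6% of all genes were at that threshold in either direction, and 0 members were called after adjustment. With 3 libraries against 3, an exact permutation test of a single gene cannot give a two-sided p below 0.1.

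Of the 8 mitotic kinases and cyclins (Cdk1, Ccna2, Ccnb1, Ccnb2, Plk1, Aurka, Aurkb and Nek2) all were higher in the model group, with a median log2 fold change of 0.80. Cdk1, the kinase that starts mitosis, was at 14.003, 16.8 and 24.9 CPM in the control libraries and at 49.1, 50.5 and 38.1 CPM in the model libraries. The groups did not overlap, the log2 fold change was 1.31 ± 0.40 (SE) and the unadjusted p by edgeR 0.00729, the smallest of the members. Aurkb, the kinase of the chromosomal passenger complex that corrects faulty attachments, was at 5.47, 7.93 and 13.1 CPM in the control and at 21.9, 22.0 and 14.95 CPM in the model group. Here too all model libraries were the higher ones, with a log2 fold change of 1.15 ± 0.43 and an unadjusted p of 0.0196. Cyclin B1 (Ccnb1), the partner of Cdk1 at mitotic entry, was at 7.11, 8.41 and 21.2 CPM and 17.8, 19.9 and 22.3 CPM, and control 3 lay inside the model range. Plk1, which matures centrosomes and releases cohesion, was at 32.6, 20.5 and 43.9 CPM and 47.3, 48.7 and 33.5 CPM. Its groups overlapped as well, with a log2 fold change of 0.42 ± 0.40 for Plk1 and 0.70 ± 0.54 for Ccnb1, both with an unadjusted p above 0.05.

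The nuclear proliferation antigen Mki67 and the DNA decatenating enzyme Top2a, often used as markers of dividing cells, differed from each other in the control group. Mki67 was at 157, 58.3 and 87.4 CPM in the control and 131, 141 and 86.9 CPM in the model libraries. Top2a was at 26.1, 25.5 and 60.3 CPM and 86.1, 87.2 and 58.8 CPM. Control 1 had the highest Mki67 of its group and a Top2a as low as control 2, and the log2 fold changes were 0.24 ± 0.47 for Mki67 and 1.05 ± 0.50 for Top2a, with neither at p under 0.05 and both groups overlapping.

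Of the 10 kinetochore and checkpoint genes (Bub1, Bub1b, Ttk, Cenpa, Cenpe, Cenpf, Ndc80, Nuf2, Spc25 and Spag5) 9 were higher in the model group, 5 without overlap, and the median log2 fold change was 0.89. The checkpoint kinase Bub1 was at 2.77, 3.20 and 5.21 CPM in the control and 10.6, 12.2 and 5.66 CPM in the model group, a log2 fold change of 1.34 ± 0.50 with an unadjusted p of 0.0204. Model 3 stood only just above control 3. Bub1b, the checkpoint protein BubR1 that inhibits Cdc20, was at 4.87, 6.54 and 13.8 CPM and 16.9, 18.8 and 13.0 CPM, with control 3 above model 3. Ndc80, the microtubule anchor of the kinetochore, was at 4.12, 2.85 and 4.89 CPM and 8.22, 8.13 and 6.25 CPM. These groups did not overlap, and the log2 fold change was 0.93 ± 0.48 for Ndc80 and 0.94 ± 0.47 for Bub1b, with unadjusted p of 0.0782 and 0.0686. Cenpa, the histone H3 variant that marks the centromere, was at 17.5, 13.98 and 15.8 CPM and 25.2, 26.6 and 18.7 CPM, without overlap. Cenpe, the kinetochore motor, was at 18.6, 9.25 and 12.6 CPM and 15.2, 13.96 and 8.10 CPM, and Cenpf, a protein of the outer kinetochore, at 16.2, 9.18 and 16.7 CPM and 17.1, 15.9 and 16.7 CPM. Both genes overlapped between the groups and had log2 fold changes of -0.12 ± 0.40 and 0.24 ± 0.37. Nuf2, the partner of Ndc80, was the other kinetochore gene at an unadjusted p under 0.05, with a log2 fold change of 1.01 ± 0.40.

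The 3 condensin genes compact chromosomes. Ncaph, the kleisin subunit of condensin I, was at 4.64, 5.15 and 9.77 CPM in the control and 21.3, 18.9 and 14.8 CPM in the model libraries. This was the largest fold change of the 40 members, 1.49 ± 0.47 on the log2 scale (2.80-fold), with an unadjusted p of 0.00804 and no overlap. Ncapg, a HEAT-repeat subunit, was at 3.82, 2.64 and 6.75 CPM and 9.05, 11.5 and 5.72 CPM, and control 3 exceeded model 3. Ncapd2 had a log2 fold change of 0.77 ± 0.37 and Ncapg 0.98 ± 0.54, neither at p under 0.05.

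None of the 5 spindle motors and microtubule binding proteins (Kif11, Kif2c, Kif4, Tpx2 and Nusap1) reached an unadjusted p under 0.05, although all were higher in the model group, by 0.73 to 1.03 on the log2 scale. Kif11, the kinesin that pushes the spindle poles apart, was at 2.40, 7.58 and 21.7 CPM in the control and 19.9, 24.9 and 20.1 CPM in the model libraries. The control values spread widely, from the lowest Kif11 of the 12 libraries in control 1 to a level inside the model range in control 3, and the log2 fold change of 1.03 ± 0.66 had the largest SE of the members. Of the central spindle and cytokinesis genes (Kif20a, Kif23, Prc1 and Racgap1), Kif23 and Racgap1, the motor and the regulator of the centralspindlin complex, had log2 fold changes of 0.97 ± 0.38 and 0.89 ± 0.37, did not overlap and had unadjusted p of 0.0241 and 0.0324. Prc1, which bundles the midzone microtubules, was at 4.34, 4.45 and 12.7 CPM and 16.4, 14.8 and 10.4 CPM, with control 3 inside the model range and a log2 fold change of 0.95 ± 0.50.

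The passenger complex genes Birc5 (survivin) and Cdca8 (borealin) target Aurora B to centromere and midzone. Birc5 was at 20.8, 13.9 and 19.6 CPM in the control and 39.2, 37.3 and 25.8 CPM in the model group. Cdca8 was at 12.2, 11.9 and 16.5 CPM and 29.1, 30.6 and 23.5 CPM. Neither overlapped, and the log2 fold changes were 0.91 ± 0.40 and 1.03 ± 0.33 with unadjusted p of 0.0411 and 0.00836. The 5 genes of anaphase and mitotic exit (Cdc20, Ube2c, Pttg1, Espl1 and Cdca3) were higher by a median of 0.55 on the log2 scale. Espl1, the separase that cuts cohesin, was at 4.49, 5.56 and 6.53 CPM and 13.6, 15.4 and 6.67 CPM, with a log2 fold change of 1.10 ± 0.41 and an unadjusted p of 0.0195. Its inhibitor Pttg1 (securin) was at 18.05, 9.74 and 9.06 CPM and 16.2, 16.3 and 12.4 CPM. Control 1 held the highest Pttg1 of these 6 libraries, and the log2 fold change was 0.29 ± 0.34. Cdc20 was at 20.6, 16.4 and 28.4 CPM and 29.8, 30.2 and 36.0 CPM without overlap, and Ube2c at 48.6, 20.03 and 37.8 CPM and 59.4, 59.0 and 42.1 CPM with control 1 inside the model range. The log2 fold changes were 0.55 ± 0.34 and 0.59 ± 0.39, neither at an unadjusted p under 0.05.

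Foxm1, the transcription factor that turns on many of these genes, was at 6.36, 7.51 and 10.9 CPM in the control and 24.2, 21.6 and 12.7 CPM in the model libraries. The groups did not overlap, with model 3 the lowest of the model group, and the log2 fold change was 1.24 ± 0.45 (2.35-fold) with an unadjusted p of 0.0187.

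The number of members at an unadjusted p under 0.05 depended on single libraries. In the fit of all libraries 9.62% of all genes were at that threshold in either direction. The members numbered 4 without control 1, with 9.73% of all genes, 4 without control 2, with 6.30%, and 23 without control 3, with 16.2%. They numbered 3 without model 1, with 5.12% of all genes, 4 without model 2, with 5.19%, 22 without DXM 2, with 8.79%, and 3 with model 1 and model 2 as 1 library, with 4.99%. The median log2 fold change lay between 0.64 and 1.163 in all of these fits. Markers of the cell types in the tissue differed too. The 17 genes of the epithelial list summed to 36291 to 47612 CPM in the control and 28865 to 39477 CPM in the model group, with 15 of 17 lower in the model group, 4 of them at p under 0.05. At that threshold 4.51% of all genes were lower. The 12 crypt base genes summed to 163 to 384 and 310 to 335 CPM, and the 10 B cell genes to 12.5 to 237 and 145 to 193 CPM. Their part in the result was not tested.

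The comparison of the Rhy with the model group asks whether the drug changed what DSS did. All 40 members were lower in the Rhy group, from -0.24 for Pttg1 to -1.07 for Foxm1 on the log2 scale, with a median of -0.62 (0.651-fold), while the median over all genes was -0.01 and 51.7% were lower. At an unadjusted p under 0.05 by edgeR 5 members were lower (Cenpa, Espl1, Ncapd2, Spag5 and Foxm1), against 1.98% of all genes, and in 9 members every Rhy library lay below every model library (Aurka, Cdc20, Cdca3, Cenpa, Cenpf, Kif11, Kif2c, Ncapd2 and Nusap1), against 6.02% of all genes. After adjustment edgeR called 0 members, with an adjusted p of 0.9997 for all 40. DESeq2 on all 12 libraries gave 6 members at p under 0.05, with 3.05% of all genes in either direction, and 0 members after adjustment.

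**Figure D4:**
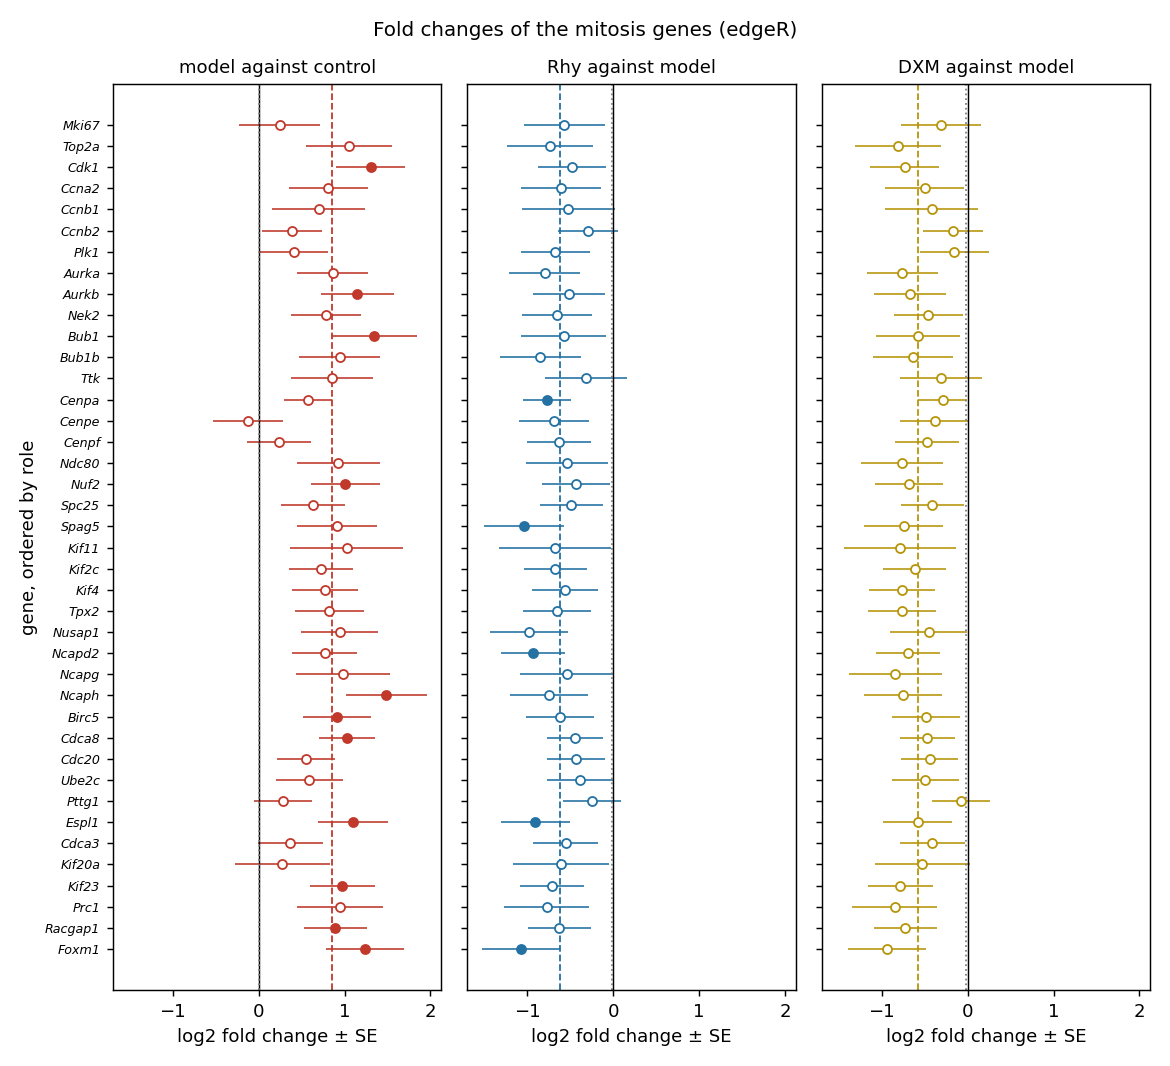
Log2 fold change ± SE (x axis) of each mitosis gene (y axis) by edgeR in 3 comparisons, with filled points for an unadjusted p under 0.05, a dashed line at the members' median and a dotted line at the median of all genes. Medians of the members are 0.86, -0.62 and -0.58, with medians of all genes near 0.

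Cenpa was at 12.2, 13.8 and 15.3 CPM in the Rhy libraries, all below the lowest model library. Its log2 fold change was -0.77 ± 0.28 and its unadjusted p 0.0194, the smallest of the members in this comparison. Foxm1 was at 4.02, 9.21 and 14.5 CPM, with Rhy 3 inside the model range, a log2 fold change of -1.07 ± 0.45 and an unadjusted p of 0.0354. Espl1 was at 3.17, 6.92 and 8.83 CPM, where Rhy 2 and Rhy 3 exceeded model 3, with a log2 fold change of -0.90 ± 0.40. The condensin gene Ncapd2 was at 32.2, 31.2 and 20.2 CPM in the model and 10.3, 14.5 and 19.0 CPM in the Rhy group, without overlap, and the log2 fold change was -0.93 ± 0.38. Spag5, the spindle protein astrin, was at 16.7, 14.5 and 7.62 CPM in the model and 2.65, 7.05 and 9.11 CPM in the Rhy group, with a log2 fold change of -1.04 ± 0.47 and an overlap between the groups. Unadjusted p was 0.0453, 0.0295 and 0.0461 for these 3 genes.

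Among the kinases, Cdk1 was at 20.3, 37.1 and 41.1 CPM, between the control and model values in Rhy 2 and overlapping the model group in Rhy 3. Aurkb was at 5.99, 16.3 and 19.0 CPM, and Plk1 at 13.8, 24.4 and 42.9 CPM with Rhy 1 the lowest of the 12 libraries. The log2 fold changes were -0.48 ± 0.40, -0.51 ± 0.42 and -0.67 ± 0.40, none at an unadjusted p under 0.05. Ccnb1 was at 11.3, 12.1 and 18.3 CPM and Mki67 at 44.3, 83.3 and 115 CPM. Top2a was at 22.3, 48.5 and 69.0 CPM. For all 3 genes Rhy 1 was the lowest and Rhy 3 the highest of the group, and Rhy 3 lay inside the model range.

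The kinetochore genes Bub1b and Ndc80 were at 5.31, 8.16 and 13.5 and 2.23, 5.22 and 8.09 CPM. Bub1 was at 4.02, 4.77 and 10.2 CPM and Cenpe at 5.31, 6.66 and 11.1 CPM. In each of these Rhy 3 was the highest Rhy library and overlapped the model group. Cenpf was at 10.3, 10.1 and 11.8 CPM, close together and all below the model libraries, with a log2 fold change of -0.63 ± 0.37. Among the other roles, Kif11 was at 8.13, 12.9 and 19.5 CPM, Nusap1, a microtubule bundling protein, at 4.79, 9.80 and 12.9 CPM, and Cdc20 at 17.6, 24.4 and 28.9 CPM, all 3 without overlap. Their log2 fold changes were -0.68 ± 0.65, -0.98 ± 0.45 and -0.44 ± 0.34. Ncaph was at 4.62, 11.4 and 16.7 CPM and Ncapg at 2.74, 5.29 and 9.90 CPM, where Rhy 3 lay inside the model range. Birc5 was at 14.7, 24.2 and 27.8 CPM, Cdca8 at 12.3, 22.7 and 26.1 CPM and Prc1 at 5.05, 6.66 and 12.6 CPM, again with Rhy 3 inside the model range. Ube2c and Pttg1 were at 28.3, 40.2 and 54.4 and 8.39, 14.9 and 14.7 CPM, the latter with the smallest change, -0.24 ± 0.34.

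Most members shared this spread within the Rhy group, with Rhy 1 low and Rhy 3 high. In the fit of all libraries 3.72% of all genes were at an unadjusted p under 0.05 in either direction. No member was at that threshold without Rhy 1, where 6.13% of all genes were, nor without model 1 (1.67%) or model 2 (1.69%), nor with both as 1 library (1.63%). There was 1 member without Rhy 2 (3.51% of all genes) and 3 without control 2 (3.62%), and there were 12 without Rhy 3 (3.75%) and 8 without DXM 2 (3.66%). With the term for the libraries low in Hoxb13, 5 members were again at p under 0.05, with 5.24% of all genes. With model 1 and model 2 as 1 library, 10 members did not overlap, against 7.60% of all genes.

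Most markers of B cells, germinal centre B cells and T cells were lower in the Rhy than in the model group. Of 7 plasma cell genes 6 were higher, by a median of 0.29 over the list on the log2 scale, none at p under 0.05. The part of these cell types in the members' levels was not tested. All 10 B cell genes were lower, by a median of -1.06 on the log2 scale and none at p under 0.05, and they summed to 1.63 to 133 CPM against 145 to 193 CPM. The 10 T cell genes were all lower too, by a median of -0.72 with 2 at p under 0.05, and summed to 13.9 to 42.0 CPM against 46.3 to 61.7 CPM. At that threshold 1.98% of all genes were lower. On both lists every Rhy library lay below every model library, with Rhy 1 the lowest. Of 8 germinal centre B cell genes 7 were lower, by a median of -0.66 over the list with 1 at p under 0.05. They summed to 53.1 to 58.7 CPM against 66.6 to 67.8 CPM. In DXM against model 7 of these 8 were lower too, by a median of -0.72 with 1 at p under 0.05, where 2.80% of all genes were lower. The B cell and T cell lists had medians of 0.11 and -0.01 in DXM against model, with 8 of 10 and 5 of 10 genes higher. Rhy 1 was 1 of the 3 libraries low in Hoxb13, and its mitochondrial share was 23.8%. The epithelial list summed to 35228 to 39966 CPM in the Rhy group, above 2 of the 3 model libraries at its lowest, and the fibroblast list to 430 to 1800 CPM against 582 to 653 CPM in the model group.

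In the DXM group all 40 members were also lower than in the model group, from -0.07 for Pttg1 to -0.94 for Foxm1 on the log2 scale, with a median of -0.58 against -0.01 for all genes. By edgeR 0 members had an unadjusted p under 0.05, where 2.80% of all genes were lower at that threshold, and 0 had an adjusted p under 0.05. DESeq2 on all 12 libraries gave 1 member at p under 0.05, with 5.53% of all genes in either direction, and 0 members after adjustment. Ncaph alone had every DXM library below every model library, against 12.2% of all genes, at 6.03, 14.4 and 12.2 CPM. The smallest p was that of Foxm1, 0.0591, with 6.86, 15.1 and 8.51 CPM and a log2 fold change of -0.94 ± 0.45.

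DXM 2 lay apart from DXM 1 and DXM 3. Cdk1 was at 13.6, 45.2 and 24.0 CPM, Ccnb1 at 6.38, 29.6 and 8.81 CPM and Mki67 at 53.4, 159 and 76.3 CPM. In each DXM 2 lay inside or above the model range, and DXM 2 was the highest of all 12 libraries for 14 members, more than any other library. Top2a was at 20.6, 72.6 and 39.3 CPM, Aurkb at 9.19, 16.0 and 11.8 CPM and Plk1 at 26.1, 50.9 and 39.5 CPM. Bub1b was at 8.30, 16.7 and 6.33 CPM, Ndc80 at 2.33, 7.04 and 3.85 CPM and Cenpf at 7.82, 20.6 and 7.39 CPM. DXM 1 and DXM 3 lay below every model library for Top2a, Bub1b, Ndc80 and Cenpf, and Plk1 was the exception, since DXM 3 lay inside the model range. Kif11 was at 5.49, 21.7 and 10.4 CPM, Ncapg at 2.61, 8.00 and 3.95 CPM and Birc5 at 14.3, 42.6 and 16.0 CPM. Cdc20 was at 18.1, 37.6 and 14.8 CPM, Ube2c at 22.8, 59.9 and 31.3 CPM and Prc1 at 4.46, 11.6 and 6.99 CPM. All 6 showed the same split of DXM 2 from the other 2 libraries. Pttg1 was at 11.4, 19.8 and 11.4 CPM and Espl1 at 8.23, 9.69 and 5.87 CPM, where DXM 2 was again the highest of the group. Bub1 was at 3.29, 10.3 and 5.42 CPM, Cenpa at 14.8, 29.2 and 13.5 CPM and Cenpe at 8.16, 14.3 and 6.08 CPM. Cdca8 was at 14.2, 29.5 and 16.3 CPM and Nusap1 at 7.13, 21.1 and 11.3 CPM, against 20.02, 20.6 and 13.6 CPM of Nusap1 in the model libraries. In these 5 genes too DXM 2 was the highest of the group and lay inside or above the model range.

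Without DXM 2, 27 members were lower at an unadjusted p under 0.05 and the median log2 fold change was -1.13, with DXM then 2 libraries and 9.20% of all genes at that threshold in either direction (7.69% with all libraries). Leaving out model 3 gave 2 members and 5.23% of all genes. Leaving out control 2, Rhy 1 or Rhy 3 gave 1 member each, with 7.39%, 9.74% and 7.95% of all genes, and any other library 0. The fibroblast list was higher in the DXM group, 1010 to 2091 CPM against 582 to 653 CPM, with 7 of 8 genes higher at p under 0.05, and the smooth muscle list too, 5693 to 9977 CPM against 4125 to 5276 CPM, with 6 of 10. At that threshold 4.89% of all genes were higher. DXM 2 was the lowest DXM library on both lists, at 1010 and 5693 CPM. The macrophage and neutrophil list summed to 486 to 986 CPM against 254 to 344 CPM. The part of these lists in the members' levels was not tested.

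Compared to the control group, no difference of a member in a drug group passed the test. In the Rhy group 30 of 40 were higher than in the control group, with a median log2 fold change of 0.17, from -0.80 for Cenpe to 0.82 for Cdk1, and 0 had an unadjusted p under 0.05 by edgeR, where 6.46% of all genes were higher at that threshold. In the DXM group 35 of 40 were higher, with a median of 0.22, from -0.50 for Cenpe to 0.76 for Bub1, and 0 were called, where 8.68% of all genes were higher. No member was without overlap in either comparison. DESeq2 on all 12 libraries called 0 members in both after adjustment. The drug groups themselves differed by a median of 0.07 (DXM against Rhy), from -0.30 for Ncapg to 0.52 for Nusap1, with 0 members at an unadjusted p under 0.05, where 2.80% of all genes were higher in the DXM group, and a smallest p of 0.119 for Cenpa. Without DXM 2 the median of the DXM group changed sign, to -0.32 against the control and -0.48 against the Rhy group, and without Rhy 1 it was -0.15 against the Rhy group. The median of the Rhy group against the control changed sign without control 2 or Rhy 3, to -0.04 and -0.08. In Rhy against control 4 of 40 members were at an unadjusted p under 0.05 without control 3 and 4 without Rhy 1, where 16.9% and 16.3% of all genes were in either direction, so the members' share lay below that of all genes. Without control 2, Rhy 3, DXM 1 or DXM 2 there was 1, with 7.89% to 12.3% of all genes. In DXM against control there were 2 without DXM 1 and 1 without control 3 or DXM 2, where 14.6% to 20.9% of all genes were at that threshold, and in DXM against Rhy 1 without Rhy 3 (7.65% of all genes) or DXM 3 (2.15%). A p that misses the threshold does not show that the groups are alike: the SE of a member's log2 fold change was 0.28 to 0.66.

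The members not yet given by library also had their highest mean in the model group. Cyclin A2 (Ccna2), which acts in S phase and early mitosis, was at 22.6 ± 7.29 CPM (SD, n = 3) in the control, 39.7 ± 5.72 in the model, 26.1 ± 10.6 in the Rhy and 28.1 ± 21.7 CPM in the DXM group. Cyclin B2 (Ccnb2) was at 15.6 ± 3.88, 20.6 ± 1.39, 16.8 ± 3.20 and 18.2 ± 10.8 CPM. The spindle pole kinase Aurka was at 8.24 ± 3.96, 15.01 ± 3.09, 8.64 ± 2.28 and 8.85 ± 4.53 CPM. All 3 had their highest mean in the model group. The centrosome kinase Nek2 was at 9.58 ± 4.65, 16.5 ± 2.63, 10.5 ± 3.67 and 12.0 ± 5.98 CPM, and the checkpoint kinase Ttk (Mps1) at 3.72 ± 1.77, 6.77 ± 1.10, 5.41 ± 2.61 and 5.46 ± 2.96 CPM. Spc25, a subunit of the Ndc80 complex, was at 6.34 ± 1.58, 9.84 ± 1.47, 7.01 ± 2.88 and 7.39 ± 3.05 CPM. These 3 were again highest on average in the model group, but none reached an unadjusted p under 0.05 in any comparison. Among the motors, the microtubule depolymerase Kif2c was at 5.98 ± 1.40, 9.91 ± 2.25, 6.21 ± 1.09 and 6.45 ± 3.43 CPM, and the chromokinesin Kif4 at 8.48 ± 2.47, 14.5 ± 3.28, 9.83 ± 3.18 and 8.53 ± 4.39 CPM. Tpx2, which activates Aurora A on the spindle, was at 13.1 ± 4.37, 23.3 ± 6.21, 14.7 ± 4.51 and 13.7 ± 7.42 CPM. Kif2c did not overlap between the Rhy and model groups, and Tpx2 overlapped in every comparison. The cytokinesis motor Kif20a, at 4.28 ± 3.59, 5.22 ± 1.04, 3.42 ± 1.59 and 3.62 ± 1.54 CPM, had the smallest difference between model and control of its role, 0.28 ± 0.55 on the log2 scale. Cdca3, a factor in the degradation of Wee1, was at 17.9 ± 6.45, 23.1 ± 0.343, 15.7 ± 4.25 and 17.3 ± 10.4 CPM.

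Across the 12 libraries the members moved largely together. The first principal component of their log2 CPM held 80.2% of the variance. The Pearson correlation of a member with the mean of the other 39 over the 12 libraries had a median of 0.915, from 0.56 for Cenpe to 0.97 for Top2a, and after removing group means a median of 0.905, from 0.58 for Pttg1 to 0.97 for Ncapg. These values share libraries and depth and are descriptions. Since the members moved together, counts of members in the same direction, at a threshold or without overlap are not counts of separate observations. Control 1 departed most: after removing each gene's mean and each library's mean, the SD over members was 0.611 on the log2 scale there and 0.164 to 0.333 in the other 11 libraries. Kif11 lay 1.89 below the pattern in control 1 (a departure of -1.89), while Cenpe lay 1.28 and Mki67 1.18 above it. The genes outside the members whose log2 CPM followed the mean of the members most closely over the 12 libraries included Arhgap11a (r = 0.98), Anln (0.97), which encodes the cleavage furrow protein anillin, and Kif15 (0.95), which encodes a spindle kinesin, followed by Kifc5b, Melk, Dbf4, Tacc3, Kifc1, Cep128, Mad2l1, Brca1, Shcbp1, Rad54l and H2afx. Cenpe was the only member whose highest library was control 1, and Kif20a the only member whose highest library was control 3.

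Outside the 40 members, other mitosis genes were described from lists of further complexes. Of 30 other kinetochore and centromere genes all were higher in the model than in the control group, by a median of 0.89 on the log2 scale, and 16 had an unadjusted p under 0.05 by edgeR. For this and the next lists, 5.11% of all genes were higher and 4.51% lower at that threshold. Cenpi, a subunit of the constitutive centromere network, was at 0.973, 2.23 and 2.36 CPM in the control and 5.79, 9.40 and 3.04 CPM in the model group, a log2 fold change of 1.70 ± 0.63. Of 8 checkpoint and cohesion protection genes 7 were higher, 4 at that threshold, among them Sgo1, the shugoshin that protects centromeric cohesin, with 1.55 ± 0.59. The 14 other spindle genes had a median of 0.63 with 2 at that threshold, and the 6 cytokinesis genes a median of 0.67 with 0. The 17 subunits and regulators of the anaphase promoting complex, most of them present throughout the cycle, had a median of 0.05, yet 6 were higher at that threshold, with Fbxo5 (Emi1), its inhibitor, at 4.19, 5.56 and 5.43 CPM and 13.4, 13.0 and 7.39 CPM. The 15 other condensin and cohesin genes had a median of 0.24 with 3 at that threshold. Of 13 entry kinases, phosphatases and regulators 6 were higher and 1, Ensa, was lower at p under 0.05.

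Of the 18 factors of DREAM, MMB and E2F, 6 were higher in the model group at an unadjusted p under 0.05, against 5.11% of all genes. Mybl2 (B-Myb), the activator that replaces repression at CHR promoters, was at 4.64, 4.24 and 5.98 CPM in the control, 12.9, 13.8 and 11.3 CPM in the model, 3.68, 8.75 and 8.60 CPM in the Rhy and 4.05, 6.84 and 6.43 CPM in the DXM group. The model libraries were above all the others, and the log2 fold change was 1.35 ± 0.34 against control, -0.85 ± 0.34 for Rhy against model and -1.13 ± 0.34 for DXM against model, with unadjusted p of 0.00214, 0.0289 and 0.00648. E2f1, an activator of S phase genes, was at 2.995, 3.20 and 6.70 CPM, 14.7, 15.7 and 11.7 CPM, 5.48, 18.5 and 11.8 CPM and 8.50, 10.5 and 9.52 CPM in the same order. It was also higher than control in the drug groups, by 1.47 ± 0.42 and 1.14 ± 0.42 on the log2 scale, except for Rhy 1, which lay inside the control range. Of 6 CDK inhibitors tested, Cdkn2c was higher in the model group at p under 0.05, and Cdkn1a (p21) was at 336, 358 and 236 CPM in the control and 148, 161 and 228 CPM in the model libraries, with a log2 fold change of -0.79 ± 0.37.

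The 30 DNA replication genes, whose products act in S phase before mitosis, were set beside the members. In the model against the control group 29 of 30 were higher, by a median of 1.25 on the log2 scale, 26 of them at an unadjusted p under 0.05 and 0 after adjustment. At that unadjusted threshold 5.11% of all genes were higher. Against the model group their median was -0.12 in the Rhy group, with 22 lower and 1 at p under 0.05, and -0.33 in the DXM group, with 24 lower and 0 at p under 0.05. Of all genes 1.98% (Rhy) and 2.80% (DXM) were lower at p under 0.05. Against the control group all 30 were higher in the Rhy group, with a median of 1.04 and 21 at p under 0.05, and all 30 in the DXM group, with a median of 0.96 and 20 at p under 0.05. Here 6.46% (Rhy) and 8.68% (DXM) of all genes were higher at p under 0.05. For the 40 members the same comparisons with the control group gave medians of 0.17 and 0.22 and 0 calls. The difference between the lists was not tested.

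By library, the mean log2 CPM of the members minus that of the replication genes was 0.59, -0.18 and 0.11 in the control group (0.18 ± 0.39, SD, n = 3), -0.19, -0.21 and -0.48 in the model group (-0.29 ± 0.17), -0.57, -1.01 and -0.52 in the Rhy group (-0.70 ± 0.27) and -0.51, -0.27 and -1.01 in the DXM group (-0.60 ± 0.37). Every Rhy library lay below every model library, and every model library below every control library. The margins were small beside the SDs, with control 2 at -0.179 and model 1 at -0.190, and model 3 at -0.484 and Rhy 3 at -0.522. DXM 2 lay inside the model range, and DXM 1 and DXM 3 below it. The ribonucleotide reductase subunit Rrm2, the replication gene with the largest fold change in the model group, was at 3.22, 6.12 and 10.4 CPM in the control, 26.1, 26.2 and 20.9 CPM in the model, 7.11, 20.8 and 29.6 CPM in the Rhy and 10.3, 23.4 and 13.7 CPM in the DXM group, with Rhy 1 and DXM 1 inside the control range.

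**Figure D5:**
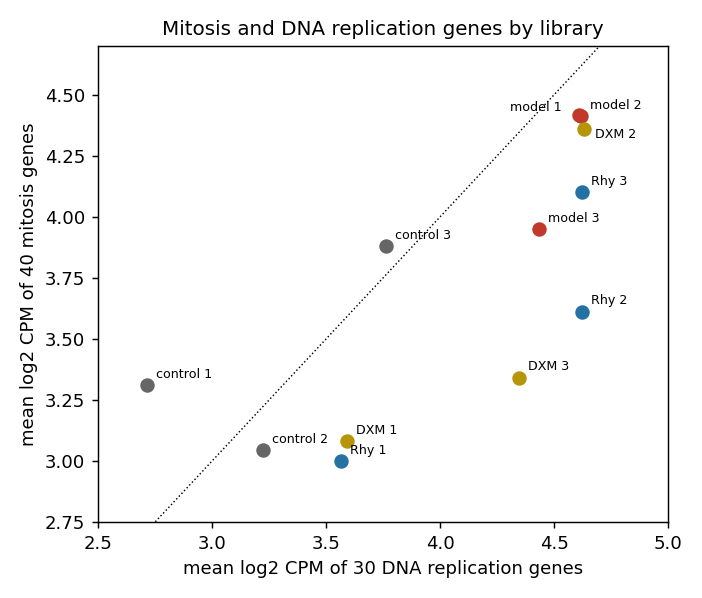
Mean log2 CPM of the 40 mitosis genes (y axis) against that of 30 DNA replication genes (x axis), 1 point per library, with the dotted line where both are equal. Control 1 and control 3 lie above the line, and Rhy 2 and DXM 3 lie farthest below it, with differences of -1.01 each.

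Reads at overlapping genes are uncertain, since the sources used here do not state whether strand was used in counting. In GENCODE M21, 14 members share exonic bases with another gene, 6 of them over 10% or more of their exonic length: Kif20a with Cdc23 (29.3%), Ube2c with Tnnc2 (22.8%), Kif4 with Pdzd11 (15.1%), Ncapg with Lcorl (13.4%), Ccna2 with Exosc9 (12.5%) and Prc1 with Rccd1 (11.1%).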

How the data were processed

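Colon RNA of 12 mouse libraries (control, model, Rhy and DXM, 3 each) was sequenced by the authors as mRNA libraries. The submitters' processing notes name HISAT2 2.0.5, featureCounts 1.5.0-p3 and DESeq2 1.16.1 and the mm10 build; strand use in counting and the annotation version are not given in the sources used here. The deposited raw counts per gene and the FPKM values, which the authors computed from the counts, gene length and library size, were used as they stand. Groups follow the treatment given in the labels. Counts were fitted over all 12 libraries with edgeR 4.0.16 (R 4.3.3; TMM scaling, quasi-likelihood test, 1 factor for group, no covariate), after filterByExpr with a minimum count of 10, which kept 16904 of 54532 genes (24548 had no count). P-values were adjusted by Benjamini-Hochberg over all genes tested and called at 0.05. Log2 CPM used a prior count of 2; FPKM was described and not tested. Scripts were tested on simulated data. The total count was 14346478 to 17749716 per library, and the lowest count of a member in a library was 24. The labels give the same replicate numbers in each group without saying what they share. Deviations from the group means correlated at over 0.1 in all 3 same-numbered pairs of the control and model groups (0.10 to 0.36), but not in all pairs of any other comparison. These values do not show that the numbers pair the libraries. A block on the number was fitted over all 12 libraries and also on the control and model groups alone. DESeq2 1.42.0, other scalings and filters, left-out libraries, the block, model 1 with model 2 as 1 library and a Hoxb13 term were tried (the last, and fits combining DESeq2 or the block with other choices, were added after seeing the data) as alternatives. All members are accounted for; every library's value is given for 18 members covering each role and for those with the largest or smallest fold change or the smallest p of a comparison, and other lists by counts and by extreme genes; of the 15 other genes most like the members, 1 is not reported here. The members and lists were chosen with earlier results of these data known.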

Additional observations from a re-analysis of the deposited data

How the results depend on the processing

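Adjusted calls by edgeR were 0 for the members in all 6 comparisons under every edgeR alternative, and DESeq2 gave 0 except for the 3 members called in model against control on only the groups compared; 0 of these calls were left once model 1 was summed with model 2. The direction of the median of the members held in model against control (0.64 to 1.163 with a library left out, on the log2 scale), Rhy against model (-0.94 to -0.39) and DXM against model (-1.13 to -0.39) under every alternative. It did not hold in Rhy against control (-0.08 to 0.45), DXM against control (-0.32 to 0.53) and DXM against Rhy (-0.48 to 0.34), where leaving out a library changed the sign. The count of members at an unadjusted p under 0.05 was less stable, and the cause was not tested. With a library left out it was 3 to 23 in model against control, 0 to 12 in Rhy against model, 0 to 27 in DXM against model, 0 to 4 in Rhy against control, 0 to 2 in DXM against control and 0 to 1 in DXM against Rhy; a group left with 2 libraries was assumed to vary like the others. Shares of all genes at that threshold in either direction stand in parentheses. Against 11 in model against control (9.62%), it was 22 with every gene that had a count (6.72%), 22 in edgeR (9.92%) and 22 in DESeq2 (6.39%) on only the groups compared, and 3 with model 1 and model 2 as 1 library (4.99%). Against 5 in Rhy against model (3.72%), it was 3 with RLE size factors (3.69%), 10 in edgeR (5.19%) and 12 in DESeq2 (3.74%) on only the groups compared, 0 with model 1 and model 2 as 1 library (1.63%) and 3 with these as 1 in DESeq2 on the groups compared (1.68%). Against 0 in DXM against model (7.69%), it was 5 with every gene (5.86%), 4 in edgeR (15.4%) and 6 in DESeq2 (9.32%) on only the groups compared, 1 in DESeq2 on all libraries (5.53%) and 1 with the Hoxb13 term (6.08%); of 40 members, 4 and 1 are shares below those of all genes. Against 0 in Rhy against control (11.6%), it was 2 with every gene (7.87%), 1 in edgeR (6.36%) and 1 in DESeq2 (4.31%) on only the groups compared, and 1 with the Hoxb13 term (13.7%).

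Deviations of same-numbered libraries correlated at -0.31 to 0.36 in 18 pairs, over 0.1 in 6 of them, and those of other pairs at -0.41 to 0.40. The 3 pairs of control and model were all over 0.1 (0.10 to 0.36), though control 1 correlated with model 2 at 0.21 as well. With the replicate number as a block over all libraries, 15 members had an unadjusted p under 0.05 in model against control (10.8% of all genes), 5 in Rhy against model (3.70%), 2 in DXM against model (7.36%) and 1 in Rhy against control (12.4%), with 0 in the others. The block on only the control and model groups gave 25 (10.6%). No blocked fit called a member after adjustment.

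Counts were 24 or more per member and library. Over the members, libraries of a group differed by 12.4 to 120 times counting error (chi-square per gene), and model 1 and model 2 by 1.69 times. The parts of depth and of spread between libraries in the calls were not tested. With 3 libraries a group, single libraries (control 3, Rhy 3 and DXM 2 among them) move the counts of calls, model 1 and model 2 were nearly alike, and the position of the sampled colon cannot be read from the labels.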
